A study of Mus musculus with 12 samples.

Results

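A set of 37 genes was followed in primary mouse hepatocytes with and without REV-ERBα and REV-ERBβ, the nuclear receptors encoded by Nr1d1 and Nr1d2. They are targets of the coactivator YAP and of serum response factor (SRF), together with genes of the actin, keratin and tubulin cytoskeleton and genes that hepatocytes turn on as they dedifferentiate in culture. The genes were listed by symbol, and the list was chosen with earlier results of these data known. All 37 of 37 were found among the 37991 genes of the deposited table. The row with the highest mean was taken for a repeated symbol. Of these, 32 reached at least 1 FPKM in at least 3 libraries and were tested, out of 11213 genes tested in all. FPKM, fragments scaled to gene model length and to library size, is the unit the deposited values were taken to have, since the file header names none.

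YAP and its partner TAZ carry the output of the Hippo kinase pathway: when the kinases are off, they enter the nucleus, bind TEAD transcription factors and switch on genes such as Ctgf and Cyr61. SRF binds a DNA element called the CArG box, and its coactivators of the MRTF family are held in the cytoplasm by free actin monomers, so that actin polymerization switches on SRF targets, many of which build the actin cytoskeleton itself. Plating hepatocytes on a stiff surface is known to raise activity of both routes, and keratins 8 and 18 are the keratin pair of the hepatocyte.

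The 12 libraries formed 4 groups of 3. They were KO hepatocytes with SR9009, KO hepatocytes with DMSO, control hepatocytes with SR9009 and control hepatocytes with DMSO. All mice were male, 10 weeks old, and carried loxP sites in both Nr1d1 and Nr1d2. KO mice had received AAV8-TBG-Cre-GFP 2 weeks earlier, and control mice AAV8-TBG-GFP. The TBG promoter is active in hepatocytes, so other liver cells in a preparation keep the floxed genes, and no library held Cre without loxP sites. Collagenase-isolated cells were kept on collagen-coated plates in medium with serum and then received, for 8 h, 10 µM SR9009, a synthetic compound known as a REV-ERB agonist, or its solvent DMSO. The comparison of the drug in both genotypes asks which of its effects need REV-ERB. No label says that the 3 libraries of a group came from separate mice, so each p-value speaks only of the spread among the deposited libraries, and that spread may be technical.

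Summed values were 538521 to 604449 FPKM per library, and 10611 to 10932 genes reached 1 FPKM. Relative depth, read from the steps between low values with control DMSO library 1 as 100%, was 55.5% in control SR9009 library 1, 63.4% in KO DMSO library 1 and 76.8% to 92.3% in the others. Nr1d1 averaged 17.7 ± 0.459 FPKM in KO DMSO and 18.5 ± 0.412 FPKM in control DMSO libraries (SD, n = 3 each), and Nr1d2 averaged 16.2 ± 0.0949 FPKM in KO DMSO and 15.3 ± 1.87 FPKM in control DMSO libraries. Under SR9009 Nr1d1 was higher in KO than in control cells (log2 difference 0.17, limma adjusted p = 0.0429), and levels over the whole gene models do not check the deletion. Arntl, a clock gene that REV-ERB represses, averaged 6.49 ± 0.307 FPKM in KO DMSO and 0.214 ± 0.0796 FPKM in control DMSO libraries. The 14 hepatocyte markers summed to 33165 to 39816 FPKM in every library. Of 12 stellate cell and myofibroblast markers, 9 were under 0.5 FPKM in every library, as were 5 of 6 smooth muscle markers, with Myh11 at 0 throughout, and 6 of 7 leukocyte markers.

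The promoter sequences below show which members carry the binding element of the 2 factors close to their start. A window of 250 bases before the transcription start was available for 32 of the 37 members (RefSeq, GRCm38.p6). Ctgf, Actb, Tagln, Tubb6 and S100a10 were not matched. The windows were searched for the CArG box and for the TEAD core GGAATG on both strands, so that CATTCC counted as the core read from the other strand. A CArG box stood before 5 of these 32 members (15.6%) and in 1.47% of all 32851 windows. The TEAD core stood before 11 of 32 members (34.4%) and in 12.6% of all windows. Members were counted by gene, with 2 windows each for Tpm3 and Lmna, and the whole set by window. The list includes genes picked as YAP or SRF targets, so these shares are given as description and were not tested. Vcl held both motifs. In the sequences that follow, printed 5′ to 3′ on the strand of the gene, capitals mark the motif matches. Cyr61 and Tagln2 are shown for their TEAD cores, Srf for its pair of CArG boxes and Vcl because it holds both motifs. Tpm2, the member with the largest genotype difference in DMSO, and Vim, the member with the largest SR9009 difference in control cells, are shown as windows that held neither motif.
Cyr61, chr3:145649986-145650235, minus strand: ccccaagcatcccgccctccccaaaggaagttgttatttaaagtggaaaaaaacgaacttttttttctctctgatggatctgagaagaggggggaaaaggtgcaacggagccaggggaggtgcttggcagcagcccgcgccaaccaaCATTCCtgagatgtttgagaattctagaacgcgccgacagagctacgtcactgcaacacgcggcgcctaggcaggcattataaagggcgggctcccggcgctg
Tagln2, chr1:172499996-172500245, plus strand: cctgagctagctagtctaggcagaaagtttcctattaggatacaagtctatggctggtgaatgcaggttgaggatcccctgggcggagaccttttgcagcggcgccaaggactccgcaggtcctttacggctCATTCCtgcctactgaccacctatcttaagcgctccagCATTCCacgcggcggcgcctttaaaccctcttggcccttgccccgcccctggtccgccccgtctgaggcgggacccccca
Srf, chr17:46556163-46556412, minus strand: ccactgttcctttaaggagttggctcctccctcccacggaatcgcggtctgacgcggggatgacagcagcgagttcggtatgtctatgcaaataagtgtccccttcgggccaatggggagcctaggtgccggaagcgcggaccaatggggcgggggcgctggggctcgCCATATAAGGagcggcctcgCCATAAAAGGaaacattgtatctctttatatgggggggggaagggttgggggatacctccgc
Vcl, chr14:20929148-20929397, plus strand: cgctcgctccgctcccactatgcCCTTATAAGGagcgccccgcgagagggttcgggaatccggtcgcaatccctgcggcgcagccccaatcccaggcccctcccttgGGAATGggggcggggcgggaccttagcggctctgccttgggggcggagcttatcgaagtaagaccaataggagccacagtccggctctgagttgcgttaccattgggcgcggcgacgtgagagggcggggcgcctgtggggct
Tpm2, chr4:43523555-43523804, minus strand: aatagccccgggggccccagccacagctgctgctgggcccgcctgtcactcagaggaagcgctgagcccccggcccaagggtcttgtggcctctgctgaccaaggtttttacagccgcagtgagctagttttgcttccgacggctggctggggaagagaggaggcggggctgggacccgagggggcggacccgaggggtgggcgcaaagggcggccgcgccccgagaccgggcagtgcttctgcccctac
Vim, chr2:13574061-13574310, plus strand: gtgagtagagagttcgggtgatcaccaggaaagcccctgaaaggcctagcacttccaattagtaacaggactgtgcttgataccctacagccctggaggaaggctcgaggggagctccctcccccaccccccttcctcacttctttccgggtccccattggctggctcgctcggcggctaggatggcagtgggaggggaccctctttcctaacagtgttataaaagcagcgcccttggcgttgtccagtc
The TEAD core of Cyr61 lies at −103 to −98 relative to the start, and those of Tagln2 at −118 to −113 and −80 to −75. Srf holds CArG boxes at −82 to −73 and −62 to −53, so the gene for the factor carries its own element. In Vcl the CArG box lies at −227 to −218 and the TEAD core at −143 to −138. A match describes the letters only, and binding was not measured in these data. Of the members reported below as lower in KO DMSO than in control DMSO cells, Cyr61, Tagln2 and Srf held a match. Tpm2, Tpm4, Myl12a, Cnn3, Krt8, Krt18 and S100a11 were also lower, and their windows held neither motif. Actg1, Ankrd1, Amotl2, Tpm1, Actn4, Flna, Vcl and Anxa1 held a match and did not pass in that comparison. Axl, Acta2, Cnn2 and Myl9 held a match and were not tested.

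**Figure D1:**
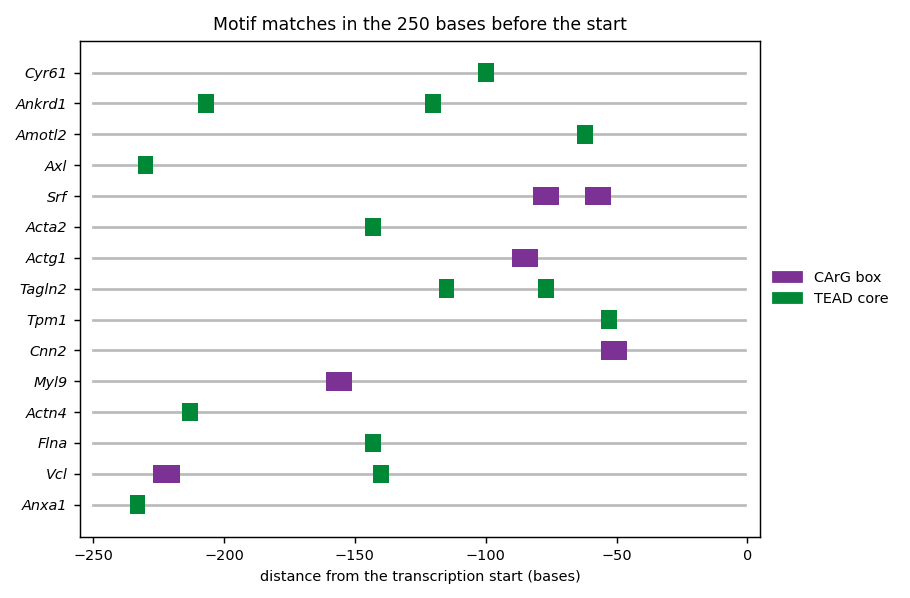
Position of CArG boxes (purple) and TEAD cores (green) in the 250 bases before the transcription start of the 15 members with a match, with distance from the start in bases on the horizontal axis. Srf, Ankrd1 and Tagln2 each show 2 boxes of the same kind, and Vcl is the gene with both kinds.

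Members spanned a wide range of levels. Krt8 and Krt18 were the highest, with means over the 12 libraries of 3838 and 2310 FPKM, followed by the cytoplasmic actins Actb and Actg1 with 1438 and 1242 FPKM. Ankrd1, a nuclear ankyrin repeat protein induced by YAP, and Anxa1, an annexin, passed the filter narrowly with means of 1.12 and 0.88 FPKM. The smooth muscle and myofibroblast genes Acta2, Tagln and Myl9 were not tested: Acta2 stayed at or below 0.276 FPKM and was listed at 0 in 6 libraries, Myl9 stayed at or below 0.228 FPKM and was listed at 0 in 7, and Tagln ranged between 0.377 and 1.88 FPKM. Cnn2, a calponin, ranged between 0.265 and 0.97 FPKM, and Axl, a receptor tyrosine kinase and YAP target, between 0.359 and 1.31 FPKM, and neither was tested. The 37 members together made up 1.78 ± 0.142% of summed FPKM in KO SR9009, 1.74 ± 0.0583% in KO DMSO, 2.28 ± 0.22% in control SR9009 and 2.19 ± 0.0833% in control DMSO libraries.

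The first comparison asked how members differ between KO and control cells in solvent. In KO DMSO libraries 12 of the 32 tested members were lower than in control DMSO libraries and 0 were higher (limma on log2(FPKM + 1), Benjamini-Hochberg adjusted p under 0.05 over all genes tested). Of all genes tested, 20.0% passed in this comparison, 8.32% as lower and 11.7% as higher. The members were chosen with earlier results of these data known, and their count was not tested against these shares. The members that fell were Tpm2, Ctgf, Myl12a, Tagln2, Cyr61, Krt18, Srf, S100a11, Krt8, Tpm4, Tubb6 and Cnn3. The median log2 difference of the 32 was −0.22, against 0.035 for all genes tested. Under SR9009 the same contrast gave 14 lower members and 1 higher, where 20.4% of all genes passed, 7.43% as lower and 12.9% as higher. The medians were −0.34 for members and 0.057 for all genes. All 12 members that fell in DMSO were among the 14 that fell under SR9009, in other libraries, with Flna and Zyx as the others. How many of all genes fell in both was not counted, so the overlap is not read as a result about the members. Fitted on its own 6 libraries, the DMSO contrast gave 17 members, 14 lower and 3 higher. The higher ones were Lmna, S100a10 and Vcl, so the absence of higher members in DMSO depended on the fit. The SR9009 contrast fitted in this way gave 12 lower and 0 higher. The 12 members that fell in DMSO as reported were in both. In bulk libraries fewer cells of a type and less RNA per cell cannot be told apart.

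**Figure D2:**
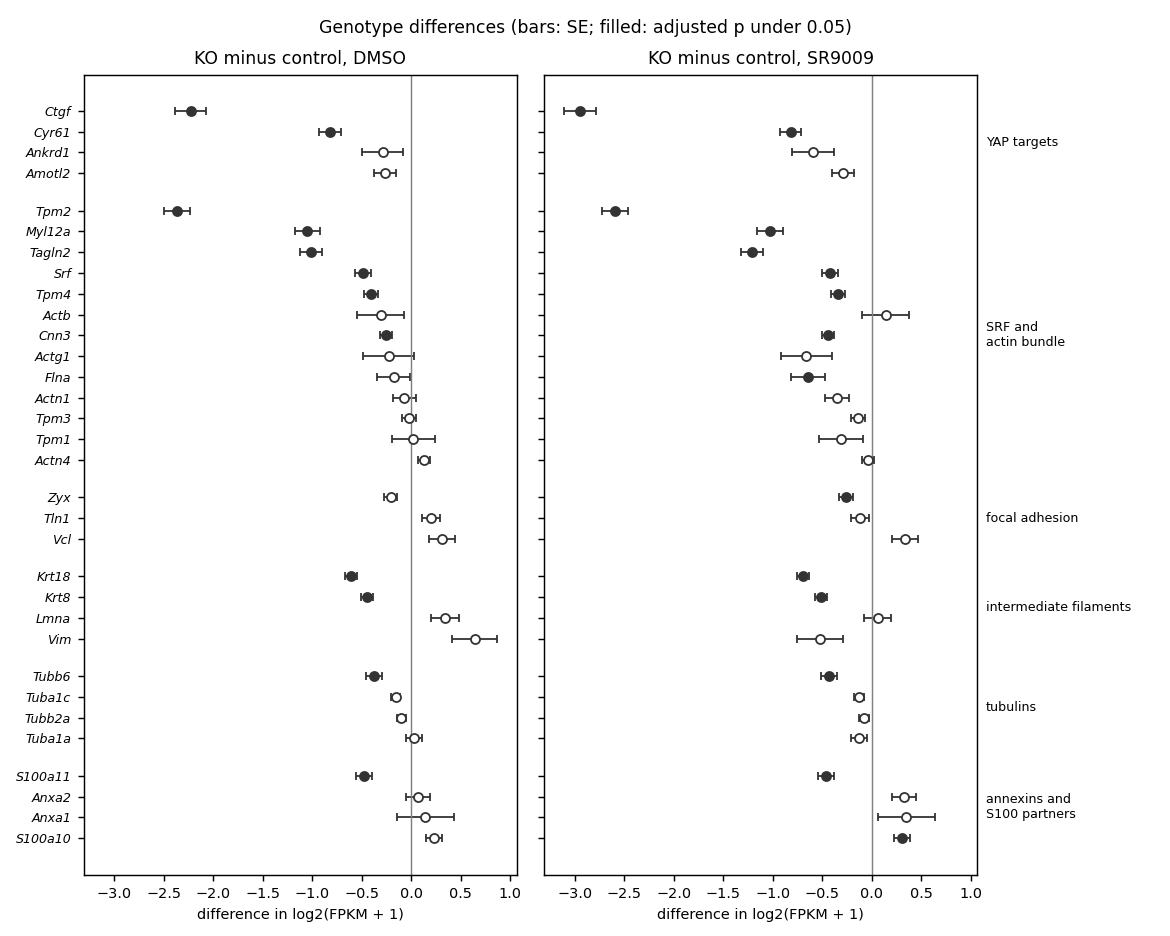
Difference in log2(FPKM + 1) for the 32 tested members, KO minus control, in DMSO (left) and under SR9009 (right), grouped by role. Points are estimates, bars are standard errors and filled points passed an adjusted p of 0.05: filled points lie left of 0 except S100a10 under SR9009, and Tpm2 and Ctgf lie farthest left in both panels.

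Among the YAP targets, Ctgf (chromosome 10, 24315248 to 24318489, plus strand, in the table's mm9 coordinates) encodes a secreted matrix-associated protein. Its levels were 12.5, 14.8 and 12.1 FPKM in the KO SR9009 libraries, 27, 34.2 and 18.9 FPKM in the KO DMSO libraries, 112, 113 and 97.7 FPKM in the control SR9009 libraries, and 127, 118 and 132 FPKM in the control DMSO libraries. All 6 KO libraries lay below all 6 control libraries, and the KO SR9009 libraries lay below the KO DMSO libraries. The mean was 4.7-fold lower in KO DMSO than in control DMSO cells (log2 difference −2.23 ± 0.16 SE, limma adjusted p = 1.6e-06), rank 10 from the lowest of 11213 genes. Under SR9009 the mean was 8.2-fold lower in KO cells (−2.95 ± 0.16, limma adjusted p = 1.52e-07), rank 2 from the lowest. A gene model on the opposite strand, Gm15270, overlaps Ctgf and averaged 0.607 FPKM.

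Cyr61 (chromosome 3, 145309935 to 145312949, minus strand) encodes another secreted protein of the same CCN family. It had 152, 151 and 115 FPKM in KO SR9009, 127, 134 and 107 FPKM in KO DMSO, 263, 241 and 232 FPKM in control SR9009, and 223, 213 and 210 FPKM in control DMSO libraries. The KO and control libraries did not overlap, and the KO mean was 1.76-fold lower in DMSO (−0.82 ± 0.11, limma adjusted p = 0.000193) and 1.76-fold lower under SR9009 (−0.82 ± 0.11, limma adjusted p = 0.000164). Ctgf made up 8.69 ± 0.977% of the summed FPKM of both CCN genes in KO SR9009, 17.6 ± 2.68% in KO DMSO, 30.5 ± 1.21% in control SR9009 and 36.8 ± 1.54% in control DMSO libraries, so the balance between the paired genes also differed between genotypes. Amotl2, a junction protein that binds YAP, and Ankrd1 did not pass for genotype, with adjusted p of 0.123 and 0.384 in DMSO and 0.0977 and 0.0684 under SR9009 (limma).

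**Figure D3:**
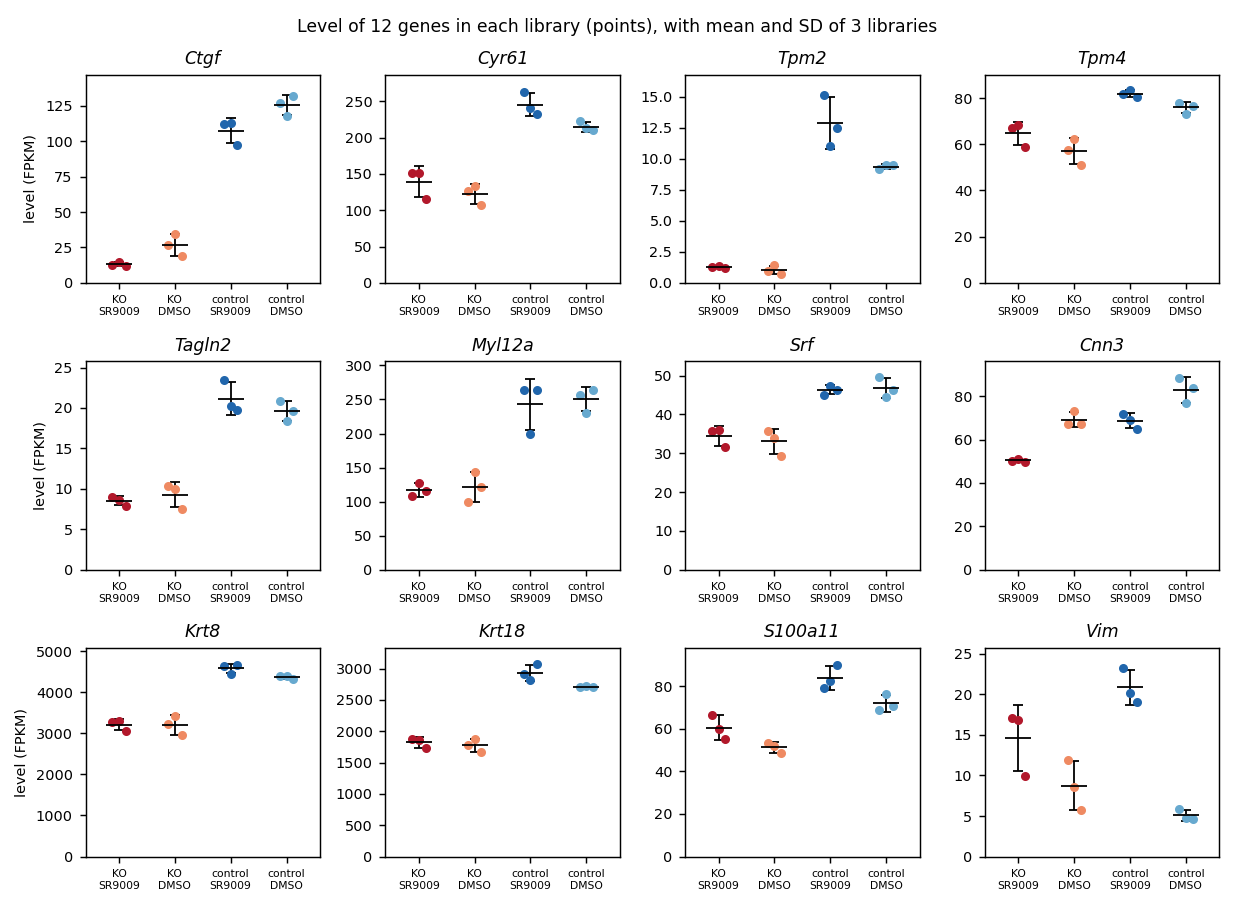
Level in FPKM of 12 members in each library, with KO groups left of control groups and SR9009 left of DMSO within each genotype. Points are libraries, and the horizontal and vertical bars give the mean and SD of 3 libraries: in 11 panels the KO libraries of a treatment lie below the control libraries of that treatment, and in the Vim panel the control DMSO libraries are the lowest group.

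Among the SRF and actin bundle genes, 6 of 13 tested members were lower in KO DMSO cells and 7 of 13 in KO SR9009 cells. Of all genes, 8.32% passed as lower in DMSO and 7.43% under SR9009. Srf itself (chromosome 17, 46683788 to 46693111, minus strand) had 35.8, 35.9 and 31.5 FPKM in KO SR9009, 35.8, 33.9 and 29.4 FPKM in KO DMSO, 45.1, 47.4 and 46.4 FPKM in control SR9009, and 49.6, 44.5 and 46.4 FPKM in control DMSO libraries. The genotypes did not overlap under either treatment. The difference was modest in size, 1.42-fold lower in KO cells in DMSO (−0.49 ± 0.08, limma adjusted p = 0.000793) and 1.35-fold lower under SR9009 (−0.42 ± 0.08, limma adjusted p = 0.00224).

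Tropomyosins are the coiled-coil proteins that lie along actin filaments, and their 4 genes moved apart. Tpm2 (chromosome 4, 43527583 to 43536637, minus strand) had 1.31, 1.35 and 1.19 FPKM in KO SR9009, 0.962, 1.4 and 0.707 FPKM in KO DMSO, 15.1, 11 and 12.5 FPKM in control SR9009, and 9.14, 9.46 and 9.48 FPKM in control DMSO libraries. Every KO library was far below every control library. Its mean was 9.16-fold lower in KO cells in DMSO (−2.37 ± 0.13, limma adjusted p = 1.06e-07) and 10.0-fold lower under SR9009 (−2.59 ± 0.13, limma adjusted p = 5.38e-08), ranks 7 and 5 from the lowest of all genes tested. Tpm4 ranged between 51.1 and 68.2 FPKM in KO libraries and between 73.3 and 83.5 FPKM in control libraries, 1.33-fold lower in KO cells in DMSO (−0.41 ± 0.07, limma adjusted p = 0.00194) and 1.27-fold lower under SR9009 (−0.34 ± 0.07, limma adjusted p = 0.00647). Tpm1 and Tpm3 did not pass in either comparison. Their means were 68.5 ± 20.2 and 71.1 ± 5.67 FPKM in KO DMSO against 65.9 ± 3.64 and 72.0 ± 4.59 FPKM in control DMSO libraries. Of the 50-base stretches of the Tpm3 transcripts, 23.2% occur in transcripts of other genes, mainly Tpm3-rs7. Tpm2 was the least abundant of the 4 in every group, with 0.621 ± 0.0444% of tropomyosin FPKM in KO SR9009, 0.519 ± 0.178% in KO DMSO, 4.89 ± 0.668% in control SR9009 and 4.2 ± 0.263% in control DMSO libraries.

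**Figure D4:**
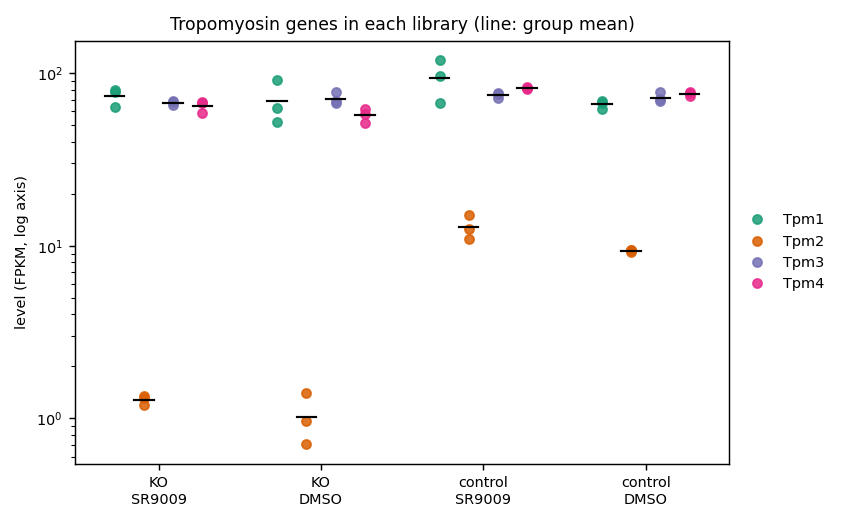
Level in FPKM (log axis) of the 4 tropomyosin genes in each library, with a line at the group mean, KO groups left of control groups. Tpm2 lies between 0.707 and 1.4 FPKM in the 6 KO libraries and between 9.14 and 15.1 FPKM in the 6 control libraries, while Tpm1, Tpm3 and Tpm4 range between 51.1 and 119 FPKM over all 12.

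Tagln2 (chromosome 1, 174430178 to 174437511, plus strand), an actin-binding transgelin, had 9.02, 8.62 and 7.93 FPKM in KO SR9009, 10.4, 9.95 and 7.53 FPKM in KO DMSO, 23.5, 20.2 and 19.7 FPKM in control SR9009, and 20.8, 18.4 and 19.6 FPKM in control DMSO libraries. KO and control libraries were well separated, with means 2.11-fold lower in KO cells in DMSO (−1.01 ± 0.11, limma adjusted p = 3.86e-05) and 2.48-fold lower under SR9009 (−1.21 ± 0.11, limma adjusted p = 7.71e-06). Myl12a (chromosome 17, 71342996 to 71352218, minus strand), a regulatory light chain of nonmuscle myosin, had 108, 128 and 115 FPKM in KO SR9009, 99.8, 144 and 121 FPKM in KO DMSO, 264, 200 and 264 FPKM in control SR9009, and 257, 230 and 264 FPKM in control DMSO libraries. Again no KO library reached a control library, and the mean was 2.06-fold lower in KO cells in DMSO (−1.05 ± 0.13, limma adjusted p = 0.000173) and 2.07-fold lower under SR9009 (−1.03 ± 0.13, limma adjusted p = 0.000179). Of the 50-base stretches of the Myl12a transcripts, 16.4% occur in transcripts of other genes, mainly its neighbour Myl12b, so reads could be split between the copies.

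Cnn3, an actin-binding calponin (chromosome 3, 121129459 to 121161123, plus strand), was lower in KO cells and lower with SR9009. It had 50.3, 51.0 and 49.8 FPKM in KO SR9009, 67.2, 73.2 and 67 FPKM in KO DMSO, 71.8, 69.1 and 65.0 FPKM in control SR9009, and 88.2, 76.7 and 83.7 FPKM in control DMSO libraries. The KO SR9009 libraries were the lowest and the control DMSO libraries the highest, with KO DMSO and control SR9009 libraries overlapping in between. The genotype difference was −0.26 ± 0.06 in DMSO (limma adjusted p = 0.0124) and −0.44 ± 0.06 under SR9009 (limma adjusted p = 0.000332). The call in DMSO was lost without control DMSO replicate 1 (adjusted p = 0.0571) or without KO DMSO replicate 3 (adjusted p = 0.0502). The other 11 calls in DMSO passed in all 20 alternatives run.

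The actin crosslinker Flna (chromosome X, 71468800 to 71495159, minus strand) had 18.8, 25.2 and 16.1 FPKM in KO SR9009, 32.2, 29.6 and 23.4 FPKM in KO DMSO, 38.7, 30.1 and 26.2 FPKM in control SR9009, and 32.0, 28.7 and 35.3 FPKM in control DMSO libraries. KO SR9009 libraries lay below control SR9009 libraries, by a narrow gap, while in DMSO the genotypes overlapped. The differences were −0.64 ± 0.17 under SR9009 (limma adjusted p = 0.0224) and −0.18 ± 0.17 in DMSO (limma adjusted p = 0.534), and the difference between them did not pass (limma adjusted p = 0.74). The Flna call under SR9009 held in 14 of 20 alternatives and was lost without control SR9009 replicate 1 (adjusted p = 0.0763), KO SR9009 replicate 1 (0.0674) or KO SR9009 replicate 3 (0.0933). The crosslinkers Actn1 and Actn4 did not pass, and neither did the cytoplasmic actins. Actb ranged between 1023 and 1972 FPKM and Actg1 between 816 and 2094 FPKM, with within-group coefficients of variation of up to 29.8% and 36.3%. For Actb 9.1% and for Actg1 37.4% of the 50-base stretches occur in transcripts of other genes, so reads could be split. Genotype differences of the actins in DMSO were −0.31 ± 0.24 and −0.23 ± 0.26 (adjusted p = 0.411 and 0.593). Under SR9009 they were 0.14 ± 0.24 and −0.66 ± 0.26 (adjusted p = 0.731 and 0.0992). For Actg1 the KO SR9009 libraries, 816 to 943 FPKM, lay below the control SR9009 libraries, 1152 to 2094 FPKM, and that difference passed without control DMSO replicate 2 (adjusted p = 0.0328).

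Of the 3 focal adhesion genes, which link integrins to actin, Zyx passed under SR9009 and 0 passed in DMSO. Of all genes, 20.4% passed under SR9009 and 20.0% in DMSO. Zyx ranged between 105 and 118 FPKM in KO SR9009 and between 125 and 149 FPKM in control SR9009 libraries (−0.26 ± 0.07, limma adjusted p = 0.0221). In DMSO it ranged between 107 and 119 FPKM in KO and between 130 and 134 FPKM in control libraries, without passing (−0.21 ± 0.07, limma adjusted p = 0.0601). The Zyx call under SR9009 held in 16 of 20 alternatives and was lost without control SR9009 replicate 1 (adjusted p = 0.0764) or KO SR9009 replicate 3 (0.0978). Vcl averaged 71.6 ± 1.72 FPKM in KO DMSO and 57.8 ± 4.66 FPKM in control DMSO libraries, and Tln1 24.8 ± 3.28 and 21.4 ± 0.572 FPKM, with adjusted p of 0.123 and 0.162 (limma). With the DMSO libraries fitted alone, Vcl passed as higher in KO cells (limma adjusted p = 0.0127). All 3 gene models overlap a neighbour on the opposite strand, Epha1 for Zyx, Ap3m1 for Vcl and Creb3 for Tln1, with means of 8.93, 13.3 and 18.1 FPKM.

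The hepatocyte keratins fell together. Krt18 (chromosome 15, 101858647 to 101862457, plus strand) had 1875, 1867 and 1727 FPKM in KO SR9009, 1780, 1878 and 1662 FPKM in KO DMSO, 2915, 2815 and 3066 FPKM in control SR9009, and 2703, 2719 and 2707 FPKM in control DMSO libraries. Krt8 (chromosome 15, 101827142 to 101834773, minus strand) had 3282, 3291 and 3053 FPKM in KO SR9009, 3218, 3429 and 2960 FPKM in KO DMSO, 4641, 4445 and 4650 FPKM in control SR9009, and 4382, 4391 and 4320 FPKM in control DMSO libraries. For both genes every KO library was below every control library, and replicates lay close together. Krt18 was 1.53-fold lower in KO cells in DMSO (−0.61 ± 0.06, limma adjusted p = 9.01e-06) and 1.61-fold lower under SR9009 (−0.69 ± 0.06, limma adjusted p = 2.99e-06). Krt8 was 1.36-fold lower in DMSO (−0.45 ± 0.06, limma adjusted p = 0.000132) and 1.43-fold lower under SR9009 (−0.51 ± 0.06, limma adjusted p = 3.93e-05). The ratio of Krt8 to Krt18 was 1.76 ± 0.00889 in KO SR9009, 1.8 ± 0.0221 in KO DMSO, 1.56 ± 0.0401 in control SR9009 and 1.61 ± 0.0133 in control DMSO libraries, higher in each KO library than in each control library. Of the Krt8 stretches of 50 bases, 26.9% also occur in the pseudogene Krt8-ps. The nuclear lamin gene Lmna did not pass for genotype, with 53.5 ± 6.28 FPKM in KO DMSO and 42.1 ± 3.45 FPKM in control DMSO libraries (limma adjusted p = 0.121). With the DMSO libraries fitted alone, Lmna passed as higher in KO cells (limma adjusted p = 0.0372).

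Among the tubulins, Tubb6 was lower in KO cells. It ranged between 106 and 122 FPKM in KO SR9009, 92.2 and 113 FPKM in KO DMSO, 149 and 163 FPKM in control SR9009, and 129 and 144 FPKM in control DMSO libraries. The difference was −0.38 ± 0.08 in DMSO (limma adjusted p = 0.0054) and −0.43 ± 0.08 under SR9009 (limma adjusted p = 0.00233). Tuba1a, Tuba1c and Tubb2a did not pass for genotype under either treatment.

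The members of the S100 family went in opposite directions. S100a11 (chromosome 3, 93324410 to 93330209, plus strand), a calcium-binding partner of annexin A1, had 66.6, 60.0 and 55.1 FPKM in KO SR9009, 53.4, 52.1 and 48.4 FPKM in KO DMSO, 79.1, 82.4 and 90.2 FPKM in control SR9009, and 68.9, 76.5 and 70.7 FPKM in control DMSO libraries. Within each treatment the KO libraries were the lower ones, by 1.4-fold in DMSO (−0.48 ± 0.08, limma adjusted p = 0.000829) and 1.38-fold under SR9009 (−0.46 ± 0.08, limma adjusted p = 0.000977). S100a10 (chromosome 3, 93359002 to 93368565, plus strand), the light chain that binds annexin A2, had 648, 623 and 614 FPKM in KO SR9009, 518, 563 and 550 FPKM in KO DMSO, 477, 474 and 576 FPKM in control SR9009, and 429, 496 and 471 FPKM in control DMSO libraries. Here the KO libraries were the higher ones within each treatment, and the difference passed under SR9009 (0.31 ± 0.08, limma adjusted p = 0.0145) and missed the threshold in DMSO (0.23 ± 0.08, limma adjusted p = 0.0618). The S100a10 call held in 14 of 20 alternatives, with the highest adjusted p, 0.0978, under median-ratio scaling, and was lost without control SR9009 replicate 1 (0.0524), control SR9009 replicate 2 (0.0545) or KO SR9009 replicate 1 (0.0527). The genes of the annexins themselves did not pass. Anxa2 averaged 19.1 ± 2.8 FPKM in KO DMSO and 18.1 ± 1.14 FPKM in control DMSO libraries, and Anxa1 stayed at or below 1.69 FPKM in all 12. For S100a11, 41.1% of the 50-base stretches occur in other gene models.

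Some markers of other liver cells also differed between genotypes. Of all genes, 8.32% passed as lower and 11.7% as higher in DMSO, and 7.43% and 12.9% under SR9009. The marker lists are short, and their counts were not tested against these shares. Of 9 tested Kupffer cell markers, 4 fell in KO DMSO cells, among them Marco, C1qb and Cd5l, and 1 rose, while under SR9009 1 fell and 1 rose. The 10 markers found summed to between 46.5 and 48.9 FPKM in KO SR9009, 36.7 and 48.4 FPKM in KO DMSO, 50.3 and 55.3 FPKM in control SR9009, and 50.2 and 63 FPKM in control DMSO libraries. Of 5 tested endothelial markers, 3 rose in KO DMSO cells (Stab1, Lyve1 and Cdh5) and 0 passed under SR9009, and the 9 markers summed to between 12.4 and 13.3 FPKM in KO SR9009, 12.6 and 19 FPKM in KO DMSO, 8.66 and 9.92 FPKM in control SR9009, and 8.71 and 9.31 FPKM in control DMSO libraries. Cholangiocytes also make keratins 8 and 18. Of their 3 tested markers, 1 rose and 1 fell in KO DMSO cells (median log2 difference 0.40), and 2 rose and 1 fell in KO SR9009 against control SR9009 cells (median 0.53). All 7 of their markers summed to between 37.2 and 41.4 FPKM in KO SR9009, 32.7 and 42 FPKM in KO DMSO, 41.2 and 63.9 FPKM in control SR9009, and 44.4 and 46.9 FPKM in control DMSO libraries. Krt8 and Krt18 together held 4780 to 5159 FPKM in KO SR9009 and 4622 to 5307 FPKM in KO DMSO libraries. They held 7260 to 7715 FPKM in control SR9009 and 7027 to 7110 FPKM in control DMSO libraries. Such sums of different genes do not give the share of a cell type. Of the 14 hepatocyte markers, 5 rose and 2 fell in KO DMSO cells, and 5 rose and 3 fell in KO SR9009 cells. The part of cell makeup in the genotype differences was not tested.

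The second comparison asked what SR9009 did in each genotype. In KO cells 5 of 32 members passed: Ctgf, Cnn3, Amotl2 and Tubb2a fell and Tuba1c rose, where 9.87% of all genes passed, 4.56% as lower and 5.32% as higher (limma adjusted p under 0.05). In control cells 5 of 32 passed: Vim, Tuba1a and Tuba1c rose and Cnn3 and Tubb2a fell, where 8.24% of all genes passed, 4.55% as lower and 3.69% as higher. Cnn3, Tuba1c and Tubb2a were in both lists of 5. The member medians were 0.04 in KO cells and 0.05 in control cells, against 0.004 and −0.016 for all genes. These counts rest on few libraries: leaving out 1 library at a time gave 2 to 6 members in KO cells, with 2 without KO SR9009 replicate 1 and 3 without control DMSO replicate 2, KO DMSO replicate 2 or KO DMSO replicate 3. In control cells it gave 1 to 6, with 3, 2 and 1 without control DMSO replicates 1, 2 and 3. When each contrast was fitted on its own 6 libraries, 7 members passed in KO cells and 1 in control cells, with 0 shared. Hepatocyte markers moved alongside: 6 of 14 fell with SR9009 in each genotype and 0 rose, and their sum ranged between 35278 and 36442 FPKM in KO SR9009, 37348 and 39816 FPKM in KO DMSO, 33165 and 35274 FPKM in control SR9009, and 36962 and 37560 FPKM in control DMSO libraries. Its part in the member differences was not tested.

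**Figure D5:**
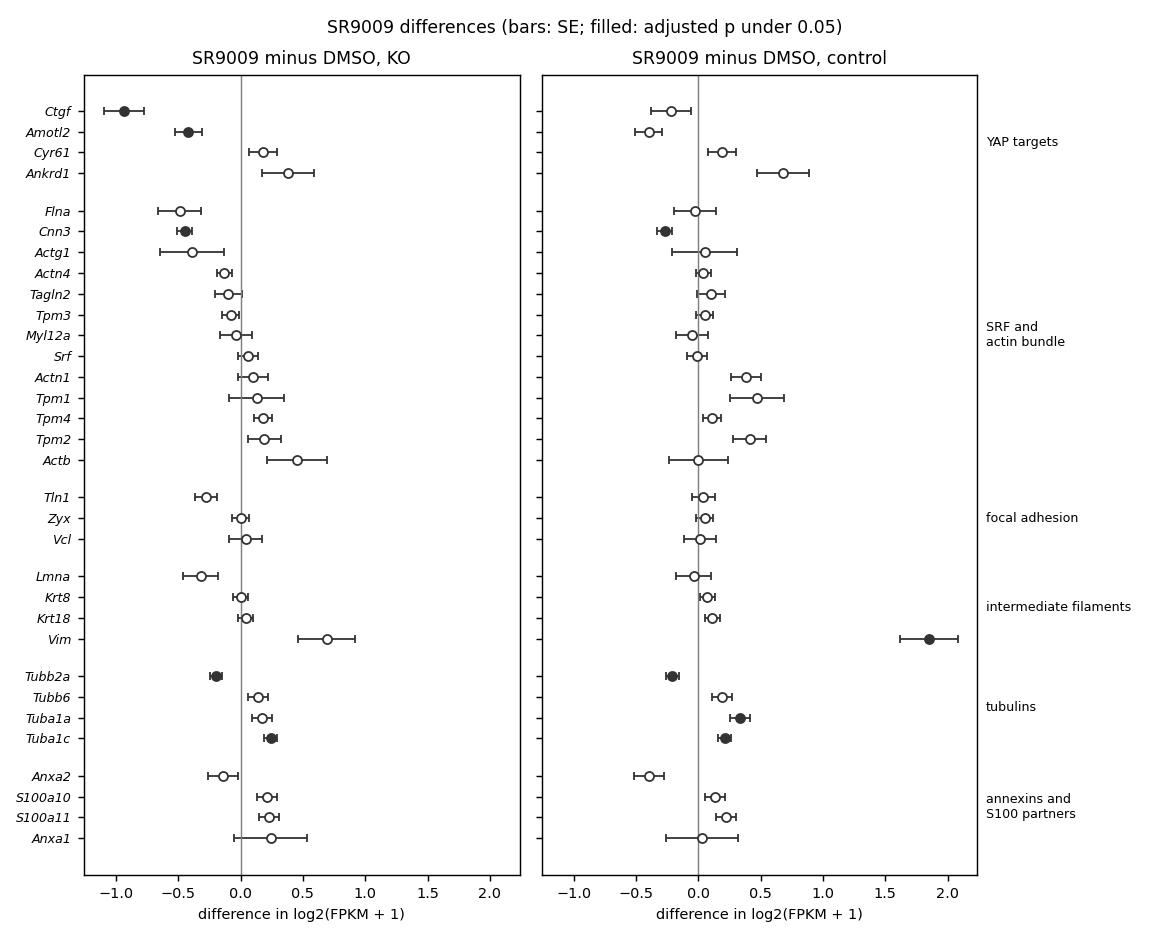
Difference in log2(FPKM + 1) for the 32 tested members, SR9009 minus DMSO, in KO cells (left) and control cells (right), grouped by role. Points are estimates, bars are standard errors and filled points passed an adjusted p of 0.05: Vim in control cells lies farthest from 0 at 1.85, and Ctgf in KO cells is the lowest at −0.94.

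Vim (chromosome 2, 13495554 to 13504453, plus strand) encodes vimentin, the intermediate filament protein of mesenchymal cells that cultured hepatocytes take up as they dedifferentiate. It had 17.1, 16.9 and 9.92 FPKM in KO SR9009, 11.9, 8.59 and 5.79 FPKM in KO DMSO, 23.3, 20.2 and 19.1 FPKM in control SR9009, and 5.83, 4.75 and 4.62 FPKM in control DMSO libraries. In control cells the treatments were far apart, and in KO cells they overlapped. SR9009 raised the mean 4.12-fold in control cells (1.85 ± 0.23, limma adjusted p = 0.000655), rank 7 from the highest of all genes tested, and this call held in all 20 alternatives. In KO cells the mean was 1.67-fold higher without passing (0.69 ± 0.23, limma adjusted p = 0.0883), and it passed without KO DMSO replicate 1 (adjusted p = 0.0298) or KO SR9009 replicate 3 (0.0216), and without the shallowest libraries (0.0342). The difference between the SR9009 effects was −1.16 ± 0.33 (limma adjusted p = 0.549), so an unequal response was not shown. Stromal cells also express Vim. The 12 stellate cell and myofibroblast markers summed to 5.2 to 8.65 FPKM in control SR9009 and 5.3 to 6.51 FPKM in control DMSO libraries. The sum of 8.65 FPKM was in control SR9009 library 1, which also held the highest Vim level, 23.3 FPKM. Of the 12 markers, 9 were under 0.5 FPKM throughout, among them Lrat, Pdgfrb, Des, Col1a1 and Col3a1. Endothelial markers summed to between 8.66 and 9.92 FPKM in control SR9009 and between 8.71 and 9.31 FPKM in control DMSO libraries, and leukocyte markers to between 0.586 and 1.07 FPKM and between 0.601 and 0.831 FPKM. Kupffer cell markers summed to between 50.3 and 55.3 FPKM in control SR9009 and between 50.2 and 63 FPKM in control DMSO libraries. The part of other cells in the Vim difference was not tested.

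Ctgf fell with SR9009 in KO cells, where its mean was 2.03-fold lower (−0.94 ± 0.16, limma adjusted p = 0.00375). In control cells the libraries also did not overlap between treatments, but the difference was small and did not pass (−0.22 ± 0.16, limma adjusted p = 0.482). The difference between these effects was −0.72 ± 0.23 (limma adjusted p = 0.599). Cyr61 was 1.14-fold higher with SR9009 in both genotypes, without passing (limma adjusted p = 0.367 in KO cells and 0.358 in control cells).

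Amotl2 (chromosome 9, 102619002 to 102635748, plus strand) had 11.8, 13.3 and 10.9 FPKM in KO SR9009, 17.7, 15.4 and 15.9 FPKM in KO DMSO, 17.0, 15.4 and 12.4 FPKM in control SR9009, and 18.2, 19.9 and 21.5 FPKM in control DMSO libraries. SR9009 libraries were the lower ones in both genotypes. The difference passed in KO cells (−0.42 ± 0.11, limma adjusted p = 0.0371) and narrowly missed in control cells (−0.40 ± 0.11, limma adjusted p = 0.0504). The KO call held in 11 of 20 alternatives and was lost without control DMSO replicate 2, without each of the 3 KO DMSO replicates in turn, or without KO SR9009 replicate 1 or KO SR9009 replicate 3 (adjusted p of 0.0534 to 0.126). Cnn3, whose values are given above, fell with SR9009 in KO cells (−0.45 ± 0.06, limma adjusted p = 0.000871) and in control cells (−0.27 ± 0.06, limma adjusted p = 0.0225). The call in KO cells held in all 20 alternatives and that in control cells in 16, being lost without control DMSO replicate 1 (adjusted p = 0.0983), control DMSO replicate 3 (0.0778) or control SR9009 replicate 3 (0.0526).

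The tubulin genes, which encode the subunits of microtubules, changed slightly with SR9009, and Tubb6 did not pass. Tuba1c had 192, 193 and 185 FPKM in KO SR9009, 169, 161 and 152 FPKM in KO DMSO, 212, 203 and 210 FPKM in control SR9009, and 187, 181 and 171 FPKM in control DMSO libraries. Tubb2a had 233, 228 and 225 FPKM in KO SR9009, 274, 266 and 248 FPKM in KO DMSO, 250, 227 and 250 FPKM in control SR9009, and 279, 285 and 278 FPKM in control DMSO libraries. SR9009 libraries were above the DMSO libraries of their genotype for Tuba1c and below them for Tubb2a. Tuba1c rose by 0.24 ± 0.05 in KO cells (limma adjusted p = 0.014) and by 0.21 ± 0.05 in control cells (limma adjusted p = 0.0315), and Tubb2a changed by −0.20 ± 0.05 in KO cells (limma adjusted p = 0.0358) and −0.21 ± 0.05 in control cells (limma adjusted p = 0.0308). Tuba1a had 29.2, 27.2 and 25.4 FPKM in KO SR9009, 25.6, 23.3 and 23.2 FPKM in KO DMSO, 31.4, 31.0 and 27.4 FPKM in control SR9009, and 24.9, 22.4 and 23.4 FPKM in control DMSO libraries, with the control treatments apart and the KO treatments overlapping (0.17 ± 0.08, limma adjusted p = 0.192 in KO cells and 0.33 ± 0.08, limma adjusted p = 0.02 in control cells). Tuba1c shares 52.7%, Tubb2a 49.6% and Tuba1a 72.9% of its 50-base stretches with other genes, mainly tubulins, so reads may be split between them. The calls for Tuba1c and Tubb2a held in 17 and 8 of 20 alternatives in KO cells and in 12 and 11 in control cells, and the Tuba1a call in control cells held in 14. With 1 library left out, the Tubb2a call in KO cells was lost in all cases with a control DMSO or KO SR9009 library left out and without KO DMSO replicates 1 or 2 (adjusted p of 0.051 to 0.131), and that in control cells without each of the 3 control DMSO replicates in turn or control SR9009 replicate 2 (0.078 to 0.0989). The Tuba1c call was lost in KO cells without KO DMSO replicate 3 or KO SR9009 replicates 1 or 2 (0.0583 to 0.0662), and in control cells without control DMSO replicates 2 or 3 or control SR9009 replicate 1 (0.0772 to 0.125). The Tuba1a call was lost without control DMSO replicates 2 or 3 or control SR9009 replicates 1 or 2 (0.061 to 0.0808).

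The difference between the SR9009 effects in KO and control cells passed for 0 of 32 members (limma), where 0.0268% of all genes passed. The lowest adjusted p was 0.549. At an unadjusted p under 0.05 there were 3 members, Vim, Ctgf and Tln1, where 7.02% of all genes passed. The same term measures whether the genotype difference changes with the drug, so for Tpm2, Cyr61, Srf and the keratins the genotype differences in DMSO and under SR9009 were not shown to differ (adjusted p of 0.861, 0.998, 0.938, 0.921 for Krt8 and 0.914 for Krt18).

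Upstream of the YAP targets lie the Hippo kinases and the TEAD factors. Of 20 tested genes of the Hippo pathway and its transcription factors, 4 rose and 1 fell in KO DMSO cells. Of all genes 20.0% passed in this comparison, 11.7% as higher and 8.32% as lower, and the count of 5 in 20 is not read as a result about the list. The kinase gene Taok3 (0.50, adjusted p = 0.00542) and Tead3, which encodes a DNA-binding partner of YAP (0.51, adjusted p = 0.00675), rose, and the scaffold gene Sav1 fell (−0.36, adjusted p = 0.00236, limma). Yap1 averaged 42.1 ± 0.951 FPKM in KO DMSO and 40.1 ± 1.38 FPKM in control DMSO libraries (limma adjusted p = 0.496), a comparison given for its role and chosen after its values were seen. With SR9009 Yap1 fell in KO cells, to 33.4 ± 0.439 FPKM (−0.33, limma adjusted p = 0.00571), and in control cells, to 31.5 ± 2.5 FPKM (−0.34, limma adjusted p = 0.00514).

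Of 9 other YAP targets tested, 4 fell and 1 rose in KO DMSO cells, where 8.32% of all genes passed as lower and 11.7% as higher. Gadd45a, a stress-induced growth arrest gene that is also controlled by other factors, averaged 197 ± 11.2 FPKM in KO SR9009, 61.8 ± 6.13 FPKM in KO DMSO, 415 ± 7.94 FPKM in control SR9009 and 112 ± 8.77 FPKM in control DMSO libraries. It was lower in KO cells (−0.85 in DMSO, limma adjusted p = 8.39e-06) and rose with SR9009 in KO cells (1.66, limma adjusted p = 1.69e-07) and in control cells (1.88, limma adjusted p = 4.11e-08). F3, tissue factor, averaged 14.3 ± 2.23 FPKM in KO SR9009, 13.0 ± 1.04 FPKM in KO DMSO, 29.7 ± 1.38 FPKM in control SR9009 and 21.6 ± 1.52 FPKM in control DMSO libraries (−0.69 in DMSO, limma adjusted p = 0.000466). Nt5e, the ectonucleotidase CD73, went the other way, with 3.29 ± 0.229 FPKM in KO SR9009, 7.56 ± 0.364 FPKM in KO DMSO, 2.24 ± 0.608 FPKM in control SR9009 and 3.79 ± 0.297 FPKM in control DMSO libraries. It was higher in KO cells (0.84 in DMSO, limma adjusted p = 0.000373) and fell with SR9009 in both genotypes (−1.0 in KO cells, adjusted p = 0.000326, and −0.58 in control cells, adjusted p = 0.012). Across this list SR9009 raised 2 genes and lowered 1 in each genotype. Of all genes, 5.32% rose and 4.56% fell in KO cells, and 3.69% rose and 4.55% fell in control cells.

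Of 16 other SRF targets tested, 5 fell and 0 rose in KO DMSO cells, and 6 fell and 0 rose in KO SR9009 cells. Of all genes, 8.32% passed as lower and 11.7% as higher in DMSO, and 7.43% and 12.9% under SR9009. The immediate early genes Egr1, Ier2 and Fos, which serum switches on within minutes, were among the SRF targets that fell in DMSO. Egr1 averaged 11.7 ± 1.11 FPKM in KO SR9009, 11.6 ± 1.1 FPKM in KO DMSO, 28.2 ± 2.6 FPKM in control SR9009 and 28.5 ± 2.18 FPKM in control DMSO libraries (−1.23 in DMSO, limma adjusted p = 1.92e-06). Ier2 changed by −0.68 (limma adjusted p = 5.08e-05) and Fos by −0.96 (limma adjusted p = 0.000306) in DMSO. SR9009 raised Thbs1, which encodes thrombospondin 1, and Ier2 in both genotypes: Thbs1 by 1.40 in KO cells (limma adjusted p = 0.000156) and 1.59 in control cells (limma adjusted p = 8.93e-05), and Ier2 by 0.33 (limma adjusted p = 0.0175) and 0.42 (limma adjusted p = 0.00564). Of 5 tested MRTF and SRF cofactors, 1 passed for genotype, and this count is not read as a result about the list. Of all genes, 20.0% passed for genotype in DMSO and 20.4% under SR9009. The cofactor was Fhl2, a LIM domain protein that binds SRF. It averaged 7.09 ± 1.32 FPKM in KO SR9009, 4.25 ± 1.18 FPKM in KO DMSO, 20.6 ± 3.21 FPKM in control SR9009 and 12.1 ± 1.1 FPKM in control DMSO libraries. Fhl2 was lower in KO cells in DMSO (−1.35, limma adjusted p = 0.000171) and under SR9009 (−1.42, limma adjusted p = 0.000103), and rose with SR9009 in KO cells (0.64, limma adjusted p = 0.0387) and in control cells (0.71, limma adjusted p = 0.0271).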

How the data were processed

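Polyadenylated, ribosome-depleted RNA of 12 hepatocyte libraries was sequenced after preparation with a NEBNext kit, per the labels' protocols. HISAT2 and StringTie were used with mm9, per the submitters' processing notes. Their versions, the annotation and whether strand was used were not given in those sources. The authors deposited 1 value per gene and library for 37991 genes, taken as FPKM because library sums differ and the layout is that of StringTie, while the file header names no unit. Read totals are not in the table, so relative depth was read from the steps between low values, and no count model was run. With no strand setting given, a gene and its antisense neighbour cannot be told apart.

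From the deposited FPKM values, log2(FPKM + 1) was computed. The 11213 genes that reached 1 FPKM in 3 or more libraries entered a limma 3.58.1 fit in R 4.3.3 with a mean for each of the 4 groups, trend and robust variance, tested on simulated data first. P-values were adjusted by the Benjamini-Hochberg method over all genes tested within each comparison, with 0.05 as the threshold. Log2 differences understate changes at low levels, errors after log2 differences are standard errors, and folds are ratios of mean FPKM. With 3 against 3 libraries, an exact permutation test cannot go below 0.1, so none was used.

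Every member is accounted for. The results of 1 other gene list are not reported here. Library values are given for up to 8 members per comparison and direction with the largest difference, and for Srf, and up to 3 genes of each other list per comparison were named by smallest p, except where a gene is said to have been chosen after its values were seen and except markers named for being near 0. The members and lists were chosen with earlier results of these data known. Shared sequence was measured as 50-base stretches of the GENCODE M21 transcripts found in transcripts of another gene, on a build used for no coordinate of the table. The alternatives were the pseudocount, the filter, quantile and median-ratio scaling, the groups fitted, a replicate block, the variance model, each library left out in turn and the shallowest libraries left out.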

Additional observations from a re-analysis of the deposited data

How the results depend on the processing

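The alternatives were followed for the 63 pairs of member and comparison that passed as reported or in some alternative. Direction never reversed among their 1260 recomputed values: 1131 kept their side of the threshold, 69 lost a call and 60 gained it. Pairs that passed in no setting were not among them, so changes of direction there were not counted. The count of members called for genotype ranged between 11 and 16 in DMSO (12 as reported) and between 13 and 17 under SR9009 (15 as reported) with 1 library left out, and no other setting moved it by more than 1.5 times. The SR9009 counts, 5 in each genotype as reported, depended on settings. In KO cells the count was 3 with no filter on low values, 3 without members that share over 20% of their 50-base stretches (chosen after seeing the data), and 2 to 6 with 1 library left out: 3 without control DMSO replicate 2, KO DMSO replicate 2 or KO DMSO replicate 3, and 2 without KO SR9009 replicate 1. In control cells it was 3 with no filter, 1 with only the compared groups fitted, 3 with neither trend nor robust variance, 3 without the shallowest libraries, 2 without members that share over 20%, and 1 to 6 with 1 library left out: 3, 2 and 1 without control DMSO replicates 1, 2 and 3. The cause was not tested. The difference between the SR9009 effects called 0 members throughout, with no value for only the compared groups, where it cannot be fitted. No scaling moved the median of all genes by over 0.1.

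With a replicate block the counts were 14 (KO against control in DMSO), 6 (SR9009 in control cells), 4 (SR9009 in KO cells), 0 (difference between the SR9009 effects) and 17 (KO against control under SR9009). Deviations of same-numbered libraries correlated between −0.11 and 0.12 (median 0.005), with 1 of 18 pairs over 0.1, and those of differently numbered libraries between −0.12 and 0.18 (median 0.015), so the numbers were not taken as pairs. Depth limits Acta2, Myl9, Tagln, Cnn2, Axl, Ankrd1 and Anxa1, whose levels rest on few fragments.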

Other observations

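Of 15 tested integrins and adhesion adaptors, 3 rose and 1 fell in KO DMSO cells, and 4 rose and 1 fell in KO SR9009 cells, beside 11.7% higher and 8.32% lower of all genes in DMSO and 12.9% and 7.43% under SR9009, so these counts are not read as a result about the list. Itga6, the laminin-binding integrin subunit, averaged 3.37 ± 0.155 FPKM in KO DMSO and 1.77 ± 0.141 FPKM in control DMSO libraries (log2 difference 0.66, limma adjusted p = 0.00786). Parva, an adaptor of integrin-linked kinase, averaged 10.9 ± 0.478 FPKM in KO DMSO and 8.0 ± 0.14 FPKM in control DMSO libraries (0.40, limma adjusted p = 0.00238). The scaffold gene Bcar1 averaged 26.6 ± 3.01 FPKM in KO DMSO and 46.5 ± 1.47 FPKM in control DMSO libraries (−0.79, limma adjusted p = 6.85e-05). With SR9009, Tns1, a tensin of fibrillar adhesions, was the gene of this list that passed in each genotype: it averaged 25.8 ± 3.14 FPKM in KO SR9009 and 47.2 ± 1.84 FPKM in KO DMSO (−0.85, limma adjusted p = 0.00119), and 30.8 ± 6.01 FPKM in control SR9009 and 44.0 ± 2.51 FPKM in control DMSO libraries (−0.52, limma adjusted p = 0.0259).

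Of 5 tested ductal and fetal liver genes, 2 rose and 1 fell in KO DMSO cells, where 11.7% of all genes passed as higher and 8.32% as lower. Sox9, a transcription factor of bile duct cells, averaged 9.09 ± 1.37 FPKM in KO DMSO and 2.67 ± 0.532 FPKM in control DMSO libraries (1.46, limma adjusted p = 1.57e-05), and Afp, fetal alpha-fetoprotein, 1.24 ± 0.0411 and 0.591 ± 0.0964 FPKM (0.50, limma adjusted p = 0.0406). Spp1, osteopontin, averaged 24.4 ± 3.09 FPKM in KO DMSO and 39.9 ± 0.863 FPKM in control DMSO libraries (−0.70, limma adjusted p = 0.00505). The duct keratin gene Krt7 and Cftr were under 0.5 FPKM in every library. Of 6 other tubulins tested, 0 passed for genotype, where 20.0% of all genes passed in DMSO and 20.4% under SR9009. With SR9009, Tubb4b rose in KO cells (0.25, limma adjusted p = 0.00452) and in control cells (0.28, limma adjusted p = 0.00228), Tubb5 changed by −0.30 in KO cells (limma adjusted p = 0.00452) and −0.31 in control cells (limma adjusted p = 0.00454), and Tuba4a rose in KO cells (0.26, limma adjusted p = 0.0188). Of the smooth muscle markers, Smtn alone was tested, and it was lower in KO SR9009 than in KO DMSO cells (−0.53, limma adjusted p = 0.0464).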
